A study of Drosophila melanogaster with 12 samples.

Results

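The introns described here are those of the deposited small RNA table whose counts, summed over its 6 libraries, reached 300 or more. They were selected on that sum: 1106 of the 100155 intron rows (1.1%) met it, and 52017 intron rows had any count. The table lists an intron once for each transcript that carries it, so rows of a gene with the same 6 counts were taken as 1 intron, which left 629 introns. These introns lay in 436 of the 9386 genes that had intron rows, and 21 of them belonged to 14 transcript accessions that matched no gene of the annotation used.

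The study expressed human TDP-43, the RNA-binding protein that aggregates in amyotrophic lateral sclerosis, in Drosophila melanogaster and sequenced RNA from heads. Small RNA libraries came from Repo/TDP43 flies (3 libraries, S22 to S24), in which the Repo-Gal4 driver expresses the human transgene in glia, and from Repo/2U flies (3 libraries, S19 to S21), which carry the driver without the transgene. RNA-seq libraries came from Repo/TDP43 flies (2 libraries, S05 and S06) and from TDP43/2U flies (2 libraries, S14 and S15), which carry the transgene without a driver, so the 2 assays have different controls. The strain label of all samples is 2U, and the stocks were backcrossed to a w1118 (isoCJ1) line. The RNA-seq flies were in the second week of adult life, while neither the age of the small RNA flies nor the sex of any sample is stated. The transgene acts in all glia and the heads of many flies were pooled. In this model most flies that emerge with glial TDP-43 are male. No row for the human transgene was analysed, so the labels were not checked against it. The RNA-seq libraries of a genotype are described by the study as biological replicates, while no such statement was found for the small RNA libraries, so that the spread between those may be technical.

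Introns are usually degraded after the lariat is opened, but some hold genes for other RNAs. Intronic miRNA hairpins are cut out by Drosha and Dicer-1, mirtrons are released by splicing and debranching, and C/D and H/ACA snoRNAs, which guide modification of rRNA, are trimmed from introns in animals. tRNA genes also lie inside the introns of fly genes, where RNA polymerase III transcribes them independently of the host, and tRNAs and rRNAs yield abundant fragments in libraries of short RNAs. A read counted on an intron therefore need not come from the host's transcript.

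The libraries held 31074082 to 37736599 counts, of which miRNA rows made up 76.2 to 82.6% in Repo/TDP43 heads and 79.4 to 85.2% in Repo/2U heads. Rows of rRNA held 7.19 to 10.5% in Repo/TDP43 heads and 6.37 to 10.1% in Repo/2U heads. TMM factors, which scale libraries to a common composition, were 1.37, 0.914 and 0.899 in the Repo/TDP43 libraries and 1.01, 0.77 and 1.14 in the Repo/2U libraries. S22 had the highest factor and S20 the lowest, and S20 also had the highest miRNA share and the lowest rRNA share of the Repo/2U libraries. S22 had the highest CPM (counts scaled to a column total of 1000000) of all libraries in 219 of the 629 introns, and S21 in 259.

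Counted once each, the 629 introns held 2.32, 2.15 and 1.84% of all counts in the Repo/TDP43 libraries, against 2.01, 1.63 and 1.93% in the Repo/2U libraries. In CPM these sums averaged 21055 ± 2438 in Repo/TDP43 heads and 18578 ± 2004 in Repo/2U heads (SD, n = 3 each). The ranges overlapped, and the log2 ratio of the means was 0.18. Introns of different transcripts that overlap each other are both in these sums. The counts were concentrated in few introns, since the first held 28.2% of them, the first 20 held 61.3% and the first 50 held 74.9%. The median intron had 822 counts over the 6 libraries, 107 introns had 5000 or more, and 4 had 100000 or more. Just inside the threshold lay introns of Sema2b, Parp1 and numb with 300 counts each, and just outside it introns of hth, tai and hyd with 299 each.

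The introns were divided by what their hosts contain, which the count threshold did not use. Of the 72 genes with intron rows that have a tRNA gene within their span, 65 (90.3%) held at least 1 abundant intron, against 4.65% of all genes with intron rows. For genes with a nested miRNA gene this share was 17 of 152 (11.2%), for nested snoRNA genes 10 of 103 (9.71%) and for nested snRNA genes 4 of 10 (40.0%). It was 2.99% for genes with none of these that were neither rRNA nor histone genes. Nesting was read per host, so it says that the host holds such a gene and not that the counted intron does. For the classes below each host was put in 1 class, miRNA being taken before tRNA and tRNA before snoRNA or snRNA. Mmp2, Btk and Abca3, which also hold tRNA genes, are therefore among the miRNA hosts.

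By class, 60 introns of 8 rRNA transcripts held 38.1% of the counts and 87 introns of 62 tRNA-bearing genes held 38.0%. The 354 introns of 268 other genes held 14.8%, the 20 introns of miRNA hosts held 4.65%, and the 15 introns of snoRNA or snRNA hosts held 0.707%. Another 72 introns were those of 70 histone genes, with 1.46% of the counts, and the 21 on unmatched accessions had 2.27%. Summed over the rRNA introns, the 3 Repo/TDP43 libraries had 9137, 9065 and 6842 CPM, against 7417, 6191 and 6528 CPM in the Repo/2U libraries. For the tRNA-bearing hosts the sums were 9294, 7807 and 6978 CPM in Repo/TDP43 heads and 7659, 6037 and 7473 CPM in Repo/2U heads. The genotypes overlapped in both classes, and S22 was the highest library in 60.0% of the rRNA introns and 51.7% of the introns of tRNA-bearing hosts but in 1.39% of the histone introns.

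**Figure D1:**
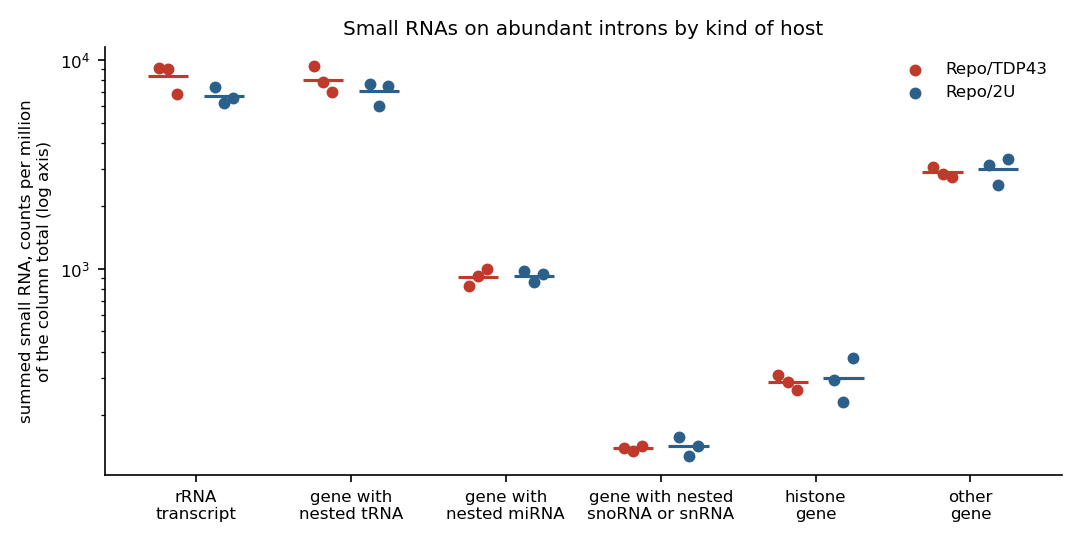
Summed small RNA on the abundant introns of each kind of host, in CPM on a log axis. Each point is a library, Repo/TDP43 left of Repo/2U, and each line is the mean of 3. rRNA and tRNA-bearing hosts lie highest, snoRNA or snRNA hosts lowest, and the points of the genotypes overlap in every class.

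The 20 introns with the highest sums were 14 of tRNA-bearing genes, 2 of rRNA transcripts, 2 of miRNA hosts, 1 of CG40006 and 1 of an unmatched transcript. None of the 20 passed an adjusted p of 0.05 in edgeR's quasi-likelihood test (the lowest was 0.128) or in DESeq2, while 4 had an unadjusted p under 0.05 in edgeR, and their fitted log2 fold changes ranged from -0.42 to 0.70. The first was intron 5 of 28SrRNA:CR45844, a transcript of the large ribosomal subunit RNA. It had 227211, 243966 and 179997 counts in Repo/TDP43 heads, against 217315, 171225 and 149368 in Repo/2U heads, a log2 fold change of 0.12 ± 0.25 (SE). The second, intron 9 of Wdr62, a spindle-associated WD-repeat protein, is listed in 8 rows, and its host holds a tRNA-Gly-GCC gene. Its counts were 43037, 36036 and 29447 in Repo/TDP43 heads and 31336, 25853 and 18955 in Repo/2U heads (0.32 ± 0.22). The genotypes overlapped in both introns.

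**Figure D2:**
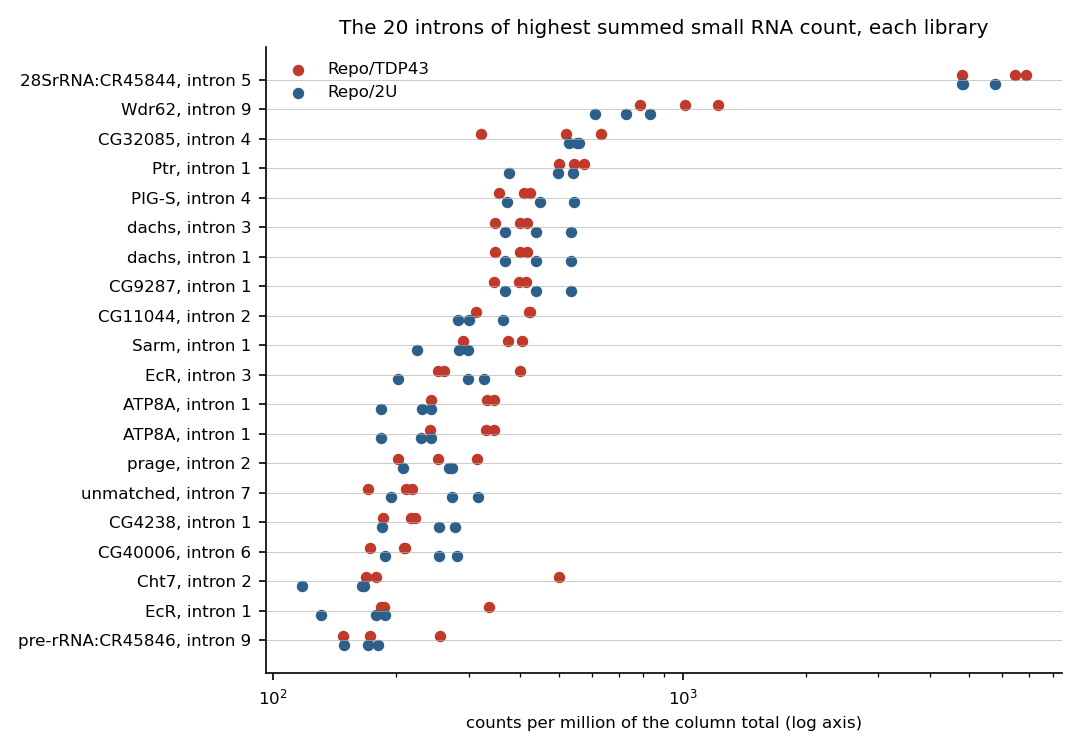
CPM (log axis) of the 20 introns with the highest sums, each point a library, Repo/TDP43 above Repo/2U in each row. The first intron lies far to the right of the rest, and in Cht7 intron 2 a single Repo/TDP43 library, S22, lies apart from the other 5.

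Among the tRNA-bearing hosts, intron 1 of Ptr, the patched-related gene, had 19118, 20442 and 18701 counts in Repo/TDP43 heads and 20353, 13405 and 15439 in Repo/2U heads, and the gene holds tRNA-Asn-GTT genes. Intron 4 of PIG-S, a subunit of the transamidase that attaches GPI anchors, had 14482, 15065 and 13348 counts in Repo/TDP43 heads and 16960, 13249 and 16824 in Repo/2U heads, and lies in a host with tRNA-Asp-GTC genes. Intron 1 of Sarm, whose product is an NADase of axon degeneration, had 14275, 13337 and 10925 counts in Repo/TDP43 heads and 11262, 7960 and 8835 in Repo/2U heads, in a host with tRNA-Leu-CAG genes. The log2 differences, 0.12 for Ptr and 0.31 for Sarm, were within the spread between libraries (adjusted p = 0.792 and 0.363). The ecdysone receptor gene EcR, which holds tRNA-Asn-GTT, tRNA-Lys-CTT, tRNA-Arg-ACG and tRNA-Ile-AAT genes, had an intron 3 with 14099, 9007 and 9797 counts in Repo/TDP43 heads and 12354, 7169 and 9312 in Repo/2U heads.

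In 75 introns the host held tRNA genes of a single kind, and 29 kinds were represented. S22 departed from S23 and S24 in some hosts and not in others, also among hosts of the same kind. In the host of highest count for tRNA-Lys-CTT, mim, which encodes a membrane-bending protein, S22 had 3.27 times the mean CPM of the other 2 Repo/TDP43 libraries. The counts there were 7569, 2232 and 2567 in Repo/TDP43 heads, against 2557, 1489 and 1826 in Repo/2U heads. The same ratio was 2.63 for tRNA-Tyr-GTA (Ntl), 1.99 for tRNA-Val-CAC (Naam, a nicotinamidase) and 1.74 for tRNA-Lys-TTT (Btk, a tyrosine kinase), but 1.01 for tRNA-Asn-GTT (Ptr) and 1.05 for tRNA-Asp-GTC (PIG-S). Over all introns of a kind it ranged from 0.914 (p) to 2.95 (Ntl) for tRNA-Tyr-GTA and from 1.05 to 1.39 for tRNA-Asp-GTC. Intron 2 of Cht7, a chitinase gene with tRNA-Cys-GCA and tRNA-Lys-CTT genes, had 17605, 6008 and 6693 counts in Repo/TDP43 heads and 6307, 4189 and 5128 in Repo/2U heads. Its adjusted p was 0.128 with all libraries and 0.0117 to 0.293 over the alternatives, and it passed the threshold under 1 of 15 of them, without S22. In the whole class 1 of 87 introns, Dbx intron 4, passed the test with all 6 libraries, against 9.04% of all rows tested.

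Several introns of different genes carried nearly the same counts. Among the 249 introns of matched genes with 1000 or more counts, 39 (15.7%) matched an intron of another gene to within 2% in every library, in 12 groups. Some of these are genes that overlap on 1 chromosome, such as mim and CheB42c. In 3 groups the genes lay on different chromosomes. CG9289 on 2L had 2844, 1996 and 2310 counts in Repo/TDP43 heads and 2503, 1813 and 1733 in Repo/2U heads. Its group also held tkv on 2L, a BMP receptor gene, Esyt2 on 3R with 2824, 1958 and 2284 in Repo/TDP43 heads and 2490, 1795 and 1705 in Repo/2U heads, and caps on 3L. All 4 hosts hold tRNA-Asp-GTC genes. The other 2 such groups paired ec on X with CG4238 on 2L, hosts that share tRNA-Gln-CTG genes, and nmo on 3L with CG14322 on 3R, which share tRNA-Ala-AGC genes. How reads that align to several places were assigned is not given in the sources used here, and whether the same reads were counted on these introns was not tested.

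The 8 transcripts of the rRNA class belong to the repeated rRNA genes on X and Y. Intron 1 of 18SrRNA:CR45838 and of 18SrRNA:CR45841 had the same 6 counts, 2860, 2514 and 2580 in Repo/TDP43 heads and 1572, 1205 and 1311 in Repo/2U heads. pre-rRNA:CR45847 had 17 abundant introns with 333 to 13045 counts, pre-rRNA:CR45845 had 11 and pre-rRNA:CR45846 had 10. Whether these rows, labelled intron, stand for spliced introns was not tested. Histone genes, which are known to lack introns, also had rows labelled intron, with the same counts in several genes. The intron rows of 9 His4 genes had 276, 272 and 294 counts in Repo/TDP43 heads and 270, 225 and 251 in Repo/2U heads in every one. The 70 histone genes were 15 His1, 1 His2A, 21 His2B, 23 His3 and 10 His4 genes, with sums of 329 to 1588, and 0 of their 72 introns passed the test in edgeR (lowest adjusted p 0.23) or DESeq2, with 9 at an unadjusted p under 0.05 in edgeR.

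Of the protein-coding hosts with 3 or more abundant introns, sm, an hnRNP L gene with a tRNA-Glu-TTC gene, had 6 with 3991 to 4025 counts, listed in 18 rows. lilli, a gene for a nuclear elongation factor of the AF4 family, had 5 with 2621 to 2686 counts. The values barely differ among the introns of each of these genes. lilli intron 1 had 1161, 325 and 241 counts in Repo/TDP43 heads and 312, 257 and 390 in Repo/2U heads, so that S22 alone was high. Glut1, a glucose transporter gene, had 4 introns with 500 to 511 counts in 20 rows. Fur1, a furin protease gene, had 5 with 351 to 532 and Ptpmeg2, a tyrosine phosphatase gene, 5 with 554 to 613. CG42784 had 6 with 328 to 431. In all, 349 of the 436 hosts had a single abundant intron and 34 had 3 or more.

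Hosts of miRNA genes accounted for 20 introns of 17 genes. Intron 4 of CG32085, the host of mir-274, had 11359, 18397 and 23697 counts in Repo/TDP43 heads and 21050, 19592 and 16357 in Repo/2U heads, with S22 low. The mature miR-274-5p row stood at 459054, 618305 and 635761 counts in Repo/TDP43 heads and 378895, 637418 and 442951 in Repo/2U heads. Intron 2 of prage, an exonuclease gene that holds mir-981, had 11112, 8982 and 7581 counts in Repo/TDP43 heads and 10137, 7384 and 8476 in Repo/2U heads, whereas miR-981-3p had 177281, 222275 and 199740 in Repo/TDP43 heads and 213421, 203942 and 181859 in Repo/2U heads. The genotypes overlapped in all 4 of these rows, with adjusted p from 0.802 to 0.96. Intron 3 of Mmp2, a matrix metalloproteinase gene with mir-307a and mir-307b, had 2505, 2527 and 3259 counts in Repo/TDP43 heads and 2396, 1648 and 1721 in Repo/2U heads (log2 fold change 0.40 ± 0.21, adjusted p = 0.351). Mmp2 also holds tRNA-iMet-CAT, and which of these genes the reads of its introns come from was not tested.

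Apart from those of Btk and Abca3, the introns of the other miRNA hosts had sums under 1000 counts. Intron 4 of Gmap, a Golgi protein gene that holds mir-12, mir-283 and mir-304, had 111, 105 and 103 counts in Repo/TDP43 heads and 102, 89 and 102 in Repo/2U heads, while miR-12-5p alone had 22434, 27213 and 34987 in Repo/TDP43 heads and 19685, 25072 and 25313 in Repo/2U heads. Of the 49 mature and hairpin rows tested for these hosts, 1 was higher in Repo/TDP43 and 0 were lower, in edgeR's quasi-likelihood test. Of all 28127 rows tested, 6.76% were higher and 2.28% lower. The lower direction had 6 rows at an unadjusted p under 0.05 and 1 called by DESeq2, miR-281-1-5p. The higher row was miR-2279-5p, from MFS17, with 213, 254 and 391 counts in Repo/TDP43 heads and 66, 90 and 114 in Repo/2U heads (log2 fold change 1.54, adjusted p = 0.0216). The intron of MFS17 had 71, 68 and 57 in Repo/TDP43 heads and 70, 44 and 58 in Repo/2U heads. From a list of 18 symbols of genes known to host conserved intronic miRNAs, 2 (Gmap and Oda) had an abundant intron. In a list of 6 snoRNA host genes the number was 0, among 84 ribosomal protein genes it was 0, and among 7 hairpin siRNA or overlapping-transcript loci it was 1 (tkv).

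Among hosts of nested snRNA or snoRNA genes, intron 1 of CG34355, which holds U1 snRNA genes of the spliceosome, had 1895, 2289 and 2878 counts in Repo/TDP43 heads and 2876, 2331 and 2074 in Repo/2U heads. Intron 1 of dnc, the learning gene that encodes a cAMP phosphodiesterase and for which no nested snRNA is annotated, had close to the same counts, 1815, 2252 and 2835 in Repo/TDP43 heads and 2797, 2307 and 2046 in Repo/2U heads. Intron 3 of sick, with U2, U4 and U5 genes, had 861, 716 and 691 counts in Repo/TDP43 heads and 990, 688 and 679 in Repo/2U heads. None of these 3 introns passed the test (adjusted p = 0.491 to 0.781).

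Among the other hosts, intron 6 of CG40006 had 6069, 7480 and 7820 counts in Repo/TDP43 heads and 10625, 6656 and 7906 in Repo/2U heads. Intron 1 of NPF, which encodes the feeding-related neuropeptide F, had 4732, 3856 and 3642 in Repo/TDP43 heads and 4644, 3210 and 3877 in Repo/2U heads. Intron 1 of gogo, an axon guidance receptor gene of photoreceptors, had 3781, 3761 and 4501 counts in Repo/TDP43 heads and 5098, 3934 and 3585 in Repo/2U heads. In Ace, the acetylcholinesterase gene, intron 1 had 2131, 1664 and 1766 counts in Repo/TDP43 heads and 2955, 1851 and 1811 in Repo/2U heads. None of these introns passed the test, and in each the ranges of the genotypes overlapped.

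For the comparison of genotypes, edgeR's quasi-likelihood test was fitted to all 28127 rows that passed its expression filter, and 9.04% of those rows were called at an adjusted p under 0.05. Higher calls made up 6.76% and lower calls 2.28%, and among the 4522 intron rows tested 7.72% were called. All 1106 rows of the abundant introns passed the filter. Of them 40 (3.62%) were higher in Repo/TDP43 and 29 (2.62%) lower. By rows, which repeat an intron for each transcript, the share called higher was thus below that of the whole table and the share called lower close to it. With the same counts in rows of 1 gene taken once, these were 37 higher and 18 lower introns, in 39 matched hosts. Introns of different genes with the same counts stay separate here, as in 18SrRNA:CR45838 and 18SrRNA:CR45841, and so do nearly equal introns of a gene, as in Mapmodulin. The share called was then 8.74% of 629, near the 9.04% of all rows, in which repeated rows of a gene are kept. An intron with under 150 counts in 1 genotype was selected through the other, and 21 of the 55 called introns were of this kind. Of the 579 introns with at least 150 counts in each genotype, 27 were higher and 7 lower.

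The median log2 fold change of the 629 introns was -0.07, against 0.02 over all rows tested. With column totals in place of TMM the medians were 0.03 and 0.14, so the sign of the introns' median depended on the scaling. Leaving out S23 reduced the calls to 31 (24 higher, 7 lower) and leaving out S21 to 34 (24 higher, 10 lower). Without S22 there were 50 higher and 9 lower.

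**Figure D3:**
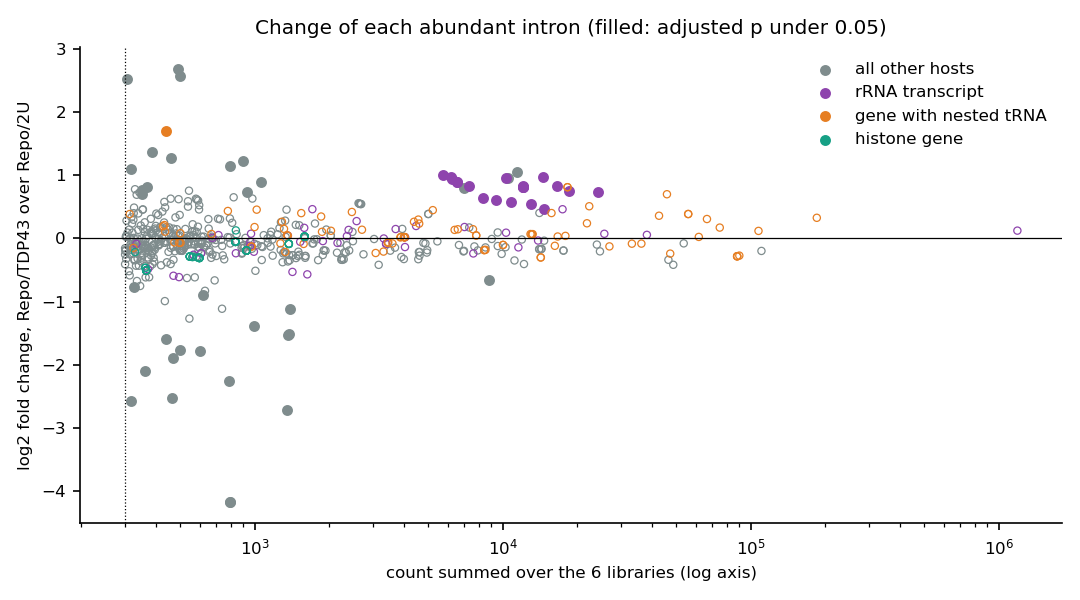
The log2 fold change of each of the 629 introns, Repo/TDP43 over Repo/2U, against its count summed over the 6 libraries on a log axis. Filled points passed an adjusted p of 0.05, colours give the kind of host, and the dotted line is the 300-count threshold. Filled rRNA points lie together between 0.47 and 1.0, and the largest changes either way lie at the left, among introns of low count.

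Of the 37 higher introns, 20 came from the 8 rRNA transcripts, with log2 fold changes of 0.47 to 1.0. The other 40 rRNA introns, among them the first of all in count, ranged from -0.61 to 0.46. Intron 3 of pre-rRNA:CR45845 had 1420, 1256 and 1294 counts in Repo/TDP43 heads and 645, 539 and 590 in Repo/2U heads (1.0 ± 0.15, adjusted p = 0.00208). Intron 3 of pre-rRNA:CR45846 had 3572, 3162 and 3233 in Repo/TDP43 heads and 1661, 1411 and 1496 in Repo/2U heads (0.96 ± 0.15). In both every Repo/TDP43 library lay above every Repo/2U library. The 20 introns belong to repeated genes, and whether they share reads was not tested. Introns 3, 5 and 11 of pre-rRNA:CR45845 passed under all 15 alternatives, whereas intron 2 of 28SrRNA:CR45844 (0.47) passed under 4 of them and was lost, among others, on leaving out S19, S20, S21, S23 or S24 and in DESeq2.

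Intron 2 of DIP-epsilon, a neuronal immunoglobulin receptor for Dpr proteins, had 2872, 2498 and 2620 counts in Repo/TDP43 heads and 1347, 1049 and 1054 in Repo/2U heads (log2 fold change 1.05 ± 0.15, adjusted p = 0.00202). Its count was 1.79 to 2.09 times that of intron 3 of pre-rRNA:CR45845 in each of the 6 libraries. The same ratio also overlapped between the genotypes for the higher introns of INPP5E (0.119 to 0.16) and CG4502 (0.0594 to 0.0979). For that of CG12531 it was 0.156 to 0.169 in Repo/TDP43 heads and 0.136 to 0.143 in Repo/2U heads. For fng, Fib and Oda, described next, it differed more, as for fng with 0.0958 to 0.12 in Repo/TDP43 heads and 0.031 to 0.039 in Repo/2U heads. The pre-rRNA intron and the introns compared with it were all picked by their higher calls. A ratio that differs little between genotypes follows from fold changes of similar size, so nothing about shared reads is read from it. Whether the reads of DIP-epsilon, INPP5E, CG4502 or CG12531 also align to rRNA genes was not tested. The RNA of DIP-epsilon was lower in Repo/TDP43 heads in the RNA-seq (-0.57 ± 0.10).

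The largest increases were in 3 introns of low count, each with under 150 counts in Repo/2U heads. They reached the 300-count threshold only through Repo/TDP43, so that the selection favoured an increase in them and their tests are not independent of it. Intron 4 of fng, which encodes the glycosyltransferase that modifies Notch, had 136, 138 and 155 counts in Repo/TDP43 heads and 20, 21 and 19 in Repo/2U heads. This was 3.96 ± 0.152 CPM in Repo/TDP43 heads and 0.577 ± 0.0422 CPM in Repo/2U heads (SD, n = 3 each in edgeR's fit), a log2 fold change of 2.68 ± 0.26 with adjusted p = 0.000272. Intron 2 of Fib, which encodes fibrillarin, the methyltransferase of C/D snoRNPs, had 158, 117 and 157 counts in Repo/TDP43 heads and 34, 16 and 16 in Repo/2U heads (2.56 ± 0.27, adjusted p = 0.000356). The annotation places snoRNA:229 within Fib. Intron 1 of Oda, the antizyme gene that restrains ornithine decarboxylase, had 105, 95 and 64 counts in Repo/TDP43 heads and 17, 11 and 13 in Repo/2U heads (2.51 ± 0.24, adjusted p = 0.000267).

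Oda holds mir-281-1 and mir-281-2, whose mature rows did not share the increase of the intron. miR-281-2-5p had 5695, 5103 and 5404 counts in Repo/TDP43 heads and 7711, 5898 and 5985 in Repo/2U heads (log2 fold change -0.43, adjusted p = 0.17). For miR-281-1-5p the counts were 738, 775 and 609 in Repo/TDP43 heads and 1073, 855 and 944 in Repo/2U heads (-0.59, adjusted p = 0.0581). Exon rows of the same transcript were tested for 17 of the 37 higher introns, and for 1 of them, fng, an exon was also higher. The fng, Fib, Oda and DIP-epsilon calls held under all 15 alternatives, with adjusted p at most 0.00313, 0.0039, 0.00281 and 0.0176. The alternatives use the same libraries and so do not remove the selection of fng, Fib and Oda through Repo/TDP43.

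The remaining higher introns of matched genes were single ones, of which those of bru1, CG4502, Pino, Ptp99A, dpp, Dbx and lncRNA:let7C were likewise selected through Repo/TDP43. Intron 3 of CG12531 had 234, 196 and 219 counts in Repo/TDP43 heads and 90, 77 and 80 in Repo/2U heads (log2 fold change 1.23 ± 0.18, adjusted p = 0.00232). Intron 1 of INPP5E, a phosphoinositide phosphatase gene, had 207, 201 and 155 counts in Repo/TDP43 heads and 77, 67 and 84 in Repo/2U heads. Intron 1 of bru1, which encodes the Bruno RNA-binding protein, had 80, 67 and 76 in Repo/TDP43 heads and 33, 28 and 32 in Repo/2U heads. Further ones were CG4502, Pino, Con (a leucine-rich adhesion protein), Ptp99A (a receptor phosphatase), the BMP ligand gene dpp, and the homeobox gene Dbx. The host of Dbx intron 4 holds a tRNA-Cys-GCA gene, and its counts of 186, 118 and 43 in Repo/TDP43 heads were more spread than the 39, 21 and 32 in Repo/2U heads.

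lncRNA:let7C, the primary transcript of mir-100, let-7 and mir-125, had 98, 65 and 82 counts on its intron 1 in Repo/TDP43 heads and 43, 36 and 44 in Repo/2U heads (0.81 ± 0.19, adjusted p = 0.0212). This call passed under 5 of 15 alternatives and was lost on leaving out S19, S20, S21, S23 or S24, in DESeq2, with column totals, with the study's mapped reads, with no filter and at an adjusted p under 0.01. Its mature miR-100-5p had 61136, 61968 and 63337 counts in Repo/TDP43 heads and 47386, 43399 and 40435 in Repo/2U heads (log2 fold change 0.35, adjusted p = 0.432), and miR-125-5p 489456, 472026 and 452768 in Repo/TDP43 heads and 522408, 404417 and 379010 in Repo/2U heads. Whether called or not, 67 of the 629 introns (10.7%) had more CPM in every Repo/TDP43 library than in every Repo/2U library, against 14.5% of all rows tested. All 37 higher introns were among them, from which nothing is read since they were picked by their call. Among non-members chosen after their values were seen, 16 rows of the mir-309 cluster, known from the early embryo, summed to 6073, 6386 and 5674 counts in Repo/TDP43 heads and 722, 657 and 507 in Repo/2U heads, and 11 of 11 tested were higher. Its part in the introns' increase was not tested.

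The 18 lower introns lay in 17 hosts, none of them rRNA, histone, snoRNA or snRNA hosts. Those of stj, Mapmodulin, rk, Mmp2, ttk, wb, CG32971, lncRNA:CR31386, Loxl2 and dpr11 had under 150 counts in Repo/TDP43 heads, so that they reached the threshold only through Repo/2U and the selection favoured a decrease in them. Intron 23 of stj, which encodes an alpha2delta subunit of calcium channels, had 14, 16 and 19 counts in Repo/TDP43 heads and 106, 57 and 105 in Repo/2U heads (log2 fold change -2.57 ± 0.27, adjusted p = 0.000352). Intron 5 of Mapmodulin, an acidic nuclear phosphoprotein gene, had 17, 13 and 15 counts in Repo/TDP43 heads and 216, 78 and 456 in Repo/2U heads (-4.16 ± 0.53, adjusted p = 0.00109), and its intron 4 had nearly the same counts. Intron 5 of rk, the receptor gene for the hormone bursicon, had 20, 19 and 34 counts in Repo/TDP43 heads and 115, 65 and 210 in Repo/2U heads (-2.52 ± 0.41). Intron 1 of 5-HT1A, a serotonin receptor gene, had 73, 51 and 67 in Repo/TDP43 heads and 289, 125 and 741 in Repo/2U heads (-2.71 ± 0.49). The introns of these 4 hosts, of which that of 5-HT1A alone had 150 or more counts in each genotype, kept their calls under all 15 alternatives, with adjusted p of at most 0.00349, 0.0115, 0.0285 and 0.0429. For stj, Mapmodulin and rk the alternatives do not remove the selection through Repo/2U.

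**Figure D4:**
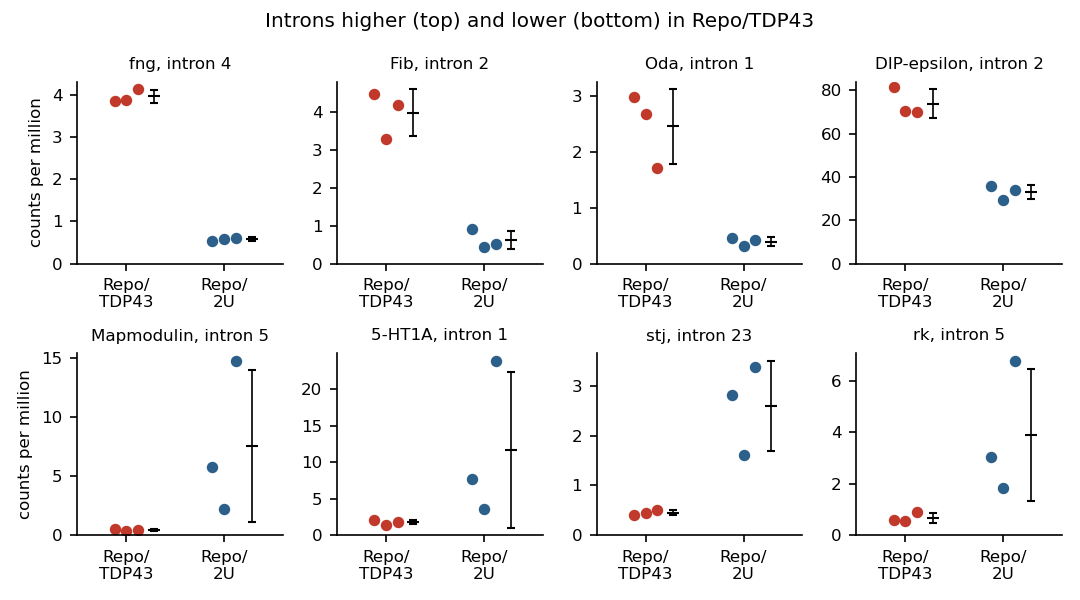
CPM in each library for 4 introns higher (top) and 4 lower (bottom) in Repo/TDP43, which stands left of Repo/2U in each panel. Black marks are the mean and SD of 3 libraries, and axes start at 0. In fng and DIP-epsilon the libraries of a genotype lie close together, while those of Oda in Repo/TDP43 and of Fib in Repo/2U spread more. In the lower introns the Repo/2U libraries spread widely, least in stj, with S21 the highest in all 4.

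The Repo/2U libraries differed widely among themselves in the lower introns. S21 was the highest of the 3 in CPM in 16 of the 18 and S20 the lowest in 13, and S21 was over 2 times S20 in 15. Over all 629 introns S21 was the highest of the 6 libraries in 259 (41.2%) and S20 in 4, so this order was not confined to the lower introns. Of the 629 introns, 23 (3.66%) had less CPM in every Repo/TDP43 library than in every Repo/2U library, against 3.71% of all rows tested, and 15 of the 18 lower introns were among them. Intron 1 of Mmp2 shows the overlap, with 51, 46 and 47 counts in Repo/TDP43 heads and 167, 49 and 427 in Repo/2U heads (log2 fold change -2.25 ± 0.56, adjusted p = 0.0313). It passed under 5 of 15 alternatives and was lost, among others, on leaving out S19, S21, S22, S23 or S24 and in DESeq2. Without S21 the lower calls numbered 10, without S22 9 and without S23 7. The rows of the mir-959 cluster, not members and chosen after their values were seen, also set S21 apart, with 81, 92 and 96 counts in Repo/TDP43 heads and 86, 51 and 365 in Repo/2U heads. Their part was not tested.

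Intron 1 of Csk, which encodes the kinase that restrains Src, was the most abundant of the lower introns, with 1431, 964 and 1235 counts in Repo/TDP43 heads and 2169, 1298 and 1694 in Repo/2U heads (log2 fold change -0.66 ± 0.14, adjusted p = 0.0141). This call was lost without S19, without S23, with column totals, with the study's mapped reads as library sizes, with no expression filter and at an adjusted p under 0.01, the adjusted p reaching 0.347. Intron 2 of plx had 100, 101 and 91 counts in Repo/TDP43 heads and 194, 145 and 359 in Repo/2U heads, and this call was lost without S22, with column totals, with the study's mapped reads and at an adjusted p under 0.01. Intron 4 of lncRNA:CR31386 had 31, 44 and 44 counts in Repo/TDP43 heads and 106, 128 and 86 in Repo/2U heads, the order of the Repo/2U libraries here being unlike that of the rest. Introns of CG32971, ttk (the repressor Tramtrack), wb (a laminin alpha chain) and CG1677 had their highest counts in S21. Their calls were lost without S22 and without S23, those of wb and CG1677 also without S21, that of CG1677 also without S20, and all 4 at an adjusted p under 0.01. The rest were lncRNA:CR44357, klg, Loxl2 (a lysyl oxidase), siz (an Arf guanine exchange factor) and dpr11, a ligand of DIP receptors. Of the 10 lower introns with tested exon rows of the same transcript, 1 had a lower exon (Loxl2) and 1, that of Csk, had higher exons.

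RNA-seq gave the level of the host transcripts. Read counts of a head mix fewer cells of a type with less RNA per cell, and these cannot be told apart. At an adjusted p under 0.05 in edgeR's quasi-likelihood test, 27.8% of 13507 genes and transposons were called between Repo/TDP43 and TDP43/2U, 15.3% higher and 12.5% lower. Of the 436 hosts, 419 were in the table and 345 were tested, with 37 higher and 109 lower (42.3% called). Their median log2 fold change was -0.19, against 0.00 over all genes. Column totals moved the median of all genes to 0.17 and gave 56 higher and 66 lower hosts. With 2 libraries per genotype the counts depended on single libraries: 12 hosts (3.42%) were called without S05, against 3.96% of all genes, and 22 (6.3%) without S06, against 7.28%. Without S14 there were 225 (64.5%), against 45.7%, so the hosts' share lay above that of all genes in some fits and below it in others.

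Of the hosts of called introns, 30 had a tested transcript, with 4 higher and 10 lower. Of all 345 tested hosts, called intron or not, 37 were higher and 109 lower (42.3% called). For fng both were higher, the RNA-seq counts being 3123 and 2229 in Repo/TDP43 heads and 1101 and 1384 in TDP43/2U heads (log2 fold change 1.40 ± 0.08, adjusted p = 0.000389). Fib was also higher, with 542 and 351 counts in Repo/TDP43 heads and 338 and 285 in TDP43/2U heads (0.78 ± 0.19, adjusted p = 0.029). Oda was not called (-0.04). In CG32971 the directions were opposite, with a lower intron and RNA-seq counts of 69 and 44 in Repo/TDP43 heads and 10 and 10 in TDP43/2U heads (2.76 ± 0.39). Lower introns with lower host RNA included those of stj (-0.36), 5-HT1A (-0.57), klg (-0.49) and dpr11 (-0.49), while Con, CG12531, DIP-epsilon and INPP5E had higher introns and lower host RNA.

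**Figure D5:**
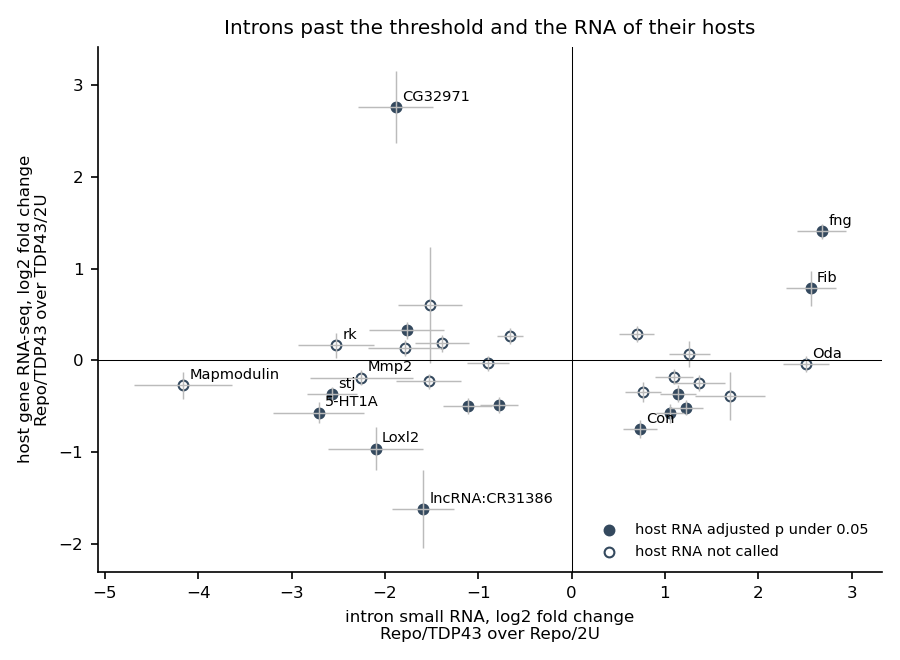
Log2 fold change of the host gene in RNA-seq (Repo/TDP43 over TDP43/2U, vertical) against that of the called intron in small RNA (Repo/TDP43 over Repo/2U, horizontal), for the 30 hosts with both. Bars are standard errors and filled points passed an adjusted p of 0.05 for the host RNA. fng and Fib lie high on both axes, and CG32971 lies at the opposite corner on the intron axis.

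Hosts whose RNA changed most had introns that were not called, apart from CG32971. CG40470 had 67 and 43 RNA-seq counts in Repo/TDP43 heads and 1739 and 2008 in TDP43/2U heads (log2 fold change -4.80), with 292, 203 and 130 counts on its intron 5 in Repo/TDP43 heads and 117, 90 and 146 in Repo/2U heads (adjusted p = 0.132). Ptr, described above among the tRNA-bearing hosts, had 370 and 256 RNA-seq counts in Repo/TDP43 heads and 1076 and 1424 in TDP43/2U heads (-1.70), while its intron differed by 0.12. m, Scp2 (a calcium-binding protein) and Pu (GTP cyclohydrolase) were also lower by 2.21, 1.81 and 1.66 on the log2 scale. The bHLH-PAS factor gene dysf had 657 and 493 RNA-seq counts in Repo/TDP43 heads and 80 and 118 in TDP43/2U heads (2.85), and 67, 72 and 75 counts on its intron 2 in Repo/TDP43 heads, with 43, 36 and 41 in Repo/2U heads (adjusted p = 0.11). CG9289, CG7309 and the axonemal dynein gene Dnah3 were higher by 2.81, 2.23 and 2.14. Intron 15 of Dnah3 had 43, 55 and 71 counts in Repo/TDP43 heads and 71, 82 and 223 in Repo/2U heads.

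The genes that process intronic small RNAs were measured in the same RNA-seq. Of 11 genes (drosha, pasha, Dcr-1, loqs, AGO1, Ranbp21, Dcr-2, r2d2, AGO2, Hen1 and the lariat debranching enzyme gene ldbr), 0 were called by edgeR or by DESeq2, and 2 had an unadjusted p under 0.05 in edgeR. The lowest adjusted p was 0.0851 (pasha, log2 fold change -0.29). In the same fit 27.8% of all 13507 genes and transposons were called. With 2 libraries a genotype, a missing call does not show that a level was unchanged. Together they had 1325 and 1337 CPM in Repo/TDP43 heads and 1312 and 1279 CPM in TDP43/2U heads. ldbr itself had 61 and 45 counts in Repo/TDP43 heads and 65 and 64 in TDP43/2U heads.

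Markers of head tissue were present in the RNA-seq, with 4 photoreceptor genes summing to 28150 and 28380 CPM in Repo/TDP43 heads and 27020 and 31930 CPM in TDP43/2U heads, none of them called. Of 6 glial markers, 2 (repo and moody) were higher and 2 (Eaat1 and nrv2) lower, and 3 of 4 neuronal markers were lower. Fat body markers summed to 18.8 and 19.8 CPM in Repo/TDP43 heads and 437 and 436 CPM in TDP43/2U heads. Most of this was Lsp2, with 14.1 and 16.7 CPM in Repo/TDP43 heads and 434 and 433 CPM in TDP43/2U heads. Lsp2 was lower by 4.98 on the log2 scale, whereas Yp1 was not called (log2 fold change 0.24) and Fbp1 was not tested. All 4 testis markers were higher, with sums of 38.7 and 21.8 CPM in Repo/TDP43 heads and 8.38 and 4.59 CPM in TDP43/2U heads, and 1 of 3 muscle markers was lower. No marker was at 0. Of all genes and transposons in the same fit, 15.3% were called higher and 12.5% lower. The part of these shifts in the changes of the hosts' RNA was not tested.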

How the data were processed

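The authors gel-selected RNA of 18 to 29 nt and aligned it to dm3 with Bowtie. The deposited small RNA table holds their counts per exon, intron, transposon, miRNA and rRNA row, and the deposited RNA-seq table their counts per gene and transposon, aligned with STAR. No deposited value was normalized. Intron rows were joined to genes of the RefSeq Release 6 annotation by transcript accession, for names and for which genes lie within others, never for coordinates. Tests were edgeR 4.0.16 quasi-likelihood fits on each whole table (R 4.3.3, TMM, filterByExpr, Benjamini-Hochberg adjustment, threshold 0.05) over 6 small RNA or 4 RNA-seq libraries, and were tested on simulated data. CPM are per column total. Alternatives were other scalings, filters and thresholds, DESeq2 1.42.0 and leaving out each library. Introns named were those with the 20 highest sums, the called ones with the smallest adjusted p, hosts with 3 or more introns, miRNA hosts, fixed lists, those at the threshold and hosts with the largest RNA-seq changes, and further names were chosen after their values were seen. The members and lists were chosen with earlier results of these data known.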

Additional observations from a re-analysis of the deposited data

How the results depend on the processing

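The calls named in the text were made again under 15 alternatives, 3 of the alternatives for counts and sums having been added after the data were seen, and 0 of the 55 called introns changed direction under any of them. Of the 574 introns not called, 284 changed sign under at least 1 alternative. Against 55 called introns (37 higher, 18 lower), an adjusted p under 0.01 left 29 (24 higher, 5 lower), and leaving out each library in turn gave 31 to 59 called, 24 to 50 higher and 7 to 17 lower. Other scalings, filters and DESeq2 gave 40 to 58. Of the host genes, against 146 called in RNA-seq (37 higher, 109 lower), column totals gave 56 higher and 66 lower, and leaving out each library gave 12 to 225 called, 6 to 51 higher and 6 to 178 lower, with fewer libraries in each such fit. The summed CPM of the introns had a log2 ratio of 0.095 to 0.27 over all alternatives, within the spread between libraries, and it was lowest without S20. No paired analysis was possible because the libraries of the genotypes share no replicate names. Intervals and calls cover the spread between 3 libraries a genotype, and introns near the 300-count threshold have few counts in each library.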
